A study of Mus musculus with 10 samples.

Results

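The genes described here are 10 hypoxia-response genes that lie outside glycolysis, out of 24594 genes counted in sorted mouse mammary epithelial cells. They are the genes of the 2 oxygen-labile HIF alpha subunits (Hif1a and Epas1), of 2 prolyl hydroxylases that mark those subunits for breakdown (Egln1 and Egln3), of 2 secreted vascular factors (Vegfa and Adm), and Ero1a, Bnip3, Ndrg1 and Ankrd37. They were picked by name, with results of the luminal against basal comparison in these same libraries in view, so their differences between the cell types are given as descriptions and carry no test. All 10 were found in the count table, and all 10 passed the filter on low counts that left 14609 genes tested.

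The study set out to compare gene expression of luminal and basal cells taken fresh from the mammary gland of virgin mice. The luminal group held 5 libraries and the basal group 5, each from wild type C57BL/6J mice with no treatment. The labels give no age, but the study states an age range for the mice of its experiments in general. Mammary tissue was dissociated with collagenase and hyaluronidase, then with trypsin and dispase, and the cells were separated by flow cytometry on EpCAM and CD49f. The study describes the first of these digestions as lasting many hours. For its mammary cell sorts the study also describes antibodies to TER-119, CD31 and CD45, which bind red cells, endothelium and leukocytes.

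Luminal cells line the ducts and hold the milk-secreting lineage, whereas basal cells form the outer, contractile layer next to the basement membrane and stroma. In oxygen, EGLN enzymes hydroxylate the HIF alpha subunits, the VHL ubiquitin ligase binds the hydroxylated form, and the subunit is degraded. When oxygen is short the alpha subunit persists, pairs with ARNT and binds a short core sequence in DNA, from which it raises transcription of genes for blood vessel growth, oxidative protein folding, mitochondrial turnover and feedback on the pathway itself. That control acts mainly on the alpha proteins, which were not measured, and a transcript level says nothing direct about them.

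Labels clash on which library is which: each of the 10 titles carries the name of the other cell type, and the groups used here follow the cell type label, with which the source name and the letter in the description go together. Under that grouping 8 of 8 luminal markers were higher in the luminal libraries, with summed levels of 10149 to 15042 against 1335 to 1748 normalised read counts (CPM), and 6 of 6 basal markers were higher in the basal libraries, with 9937 to 14129 against 25.6 to 77.4 CPM (edgeR quasi-likelihood test, adjusted p under 0.05). Read by the titles, every direction given here would turn round, and all of these luminal and basal markers would then be higher in the opposite cell type. Totals were 13203146 to 17565471 counts in luminal and 13676558 to 17998165 in basal libraries. The lowest count of any of the 10 genes in any library was 28.

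All values below are CPM on library totals scaled by TMM, a factor that offsets differences in composition, and log2 fold changes are luminal minus basal with their standard error (SE). Together the 10 genes made up 0.301% ± 0.107 of all luminal counts and 1.91% ± 0.0946 of all basal counts (SD, n = 5 each). For 8 of the 10 genes every basal library lay above every luminal library, a pattern seen in 25.3% of all 14609 genes tested (no overlap in either direction in 50.1%). No member had all luminal libraries above all basal ones, which 24.7% of genes had, and Hif1a and Bnip3 overlapped. The median log2 fold change was -3.16 over the 10 genes and 0.05 over all genes tested. Since this comparison was in view when the genes were picked, nothing is read from those counts. In sorted bulk cells a smaller share of cells with a transcript and less of it per cell cannot be told apart.

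**Figure D1:**
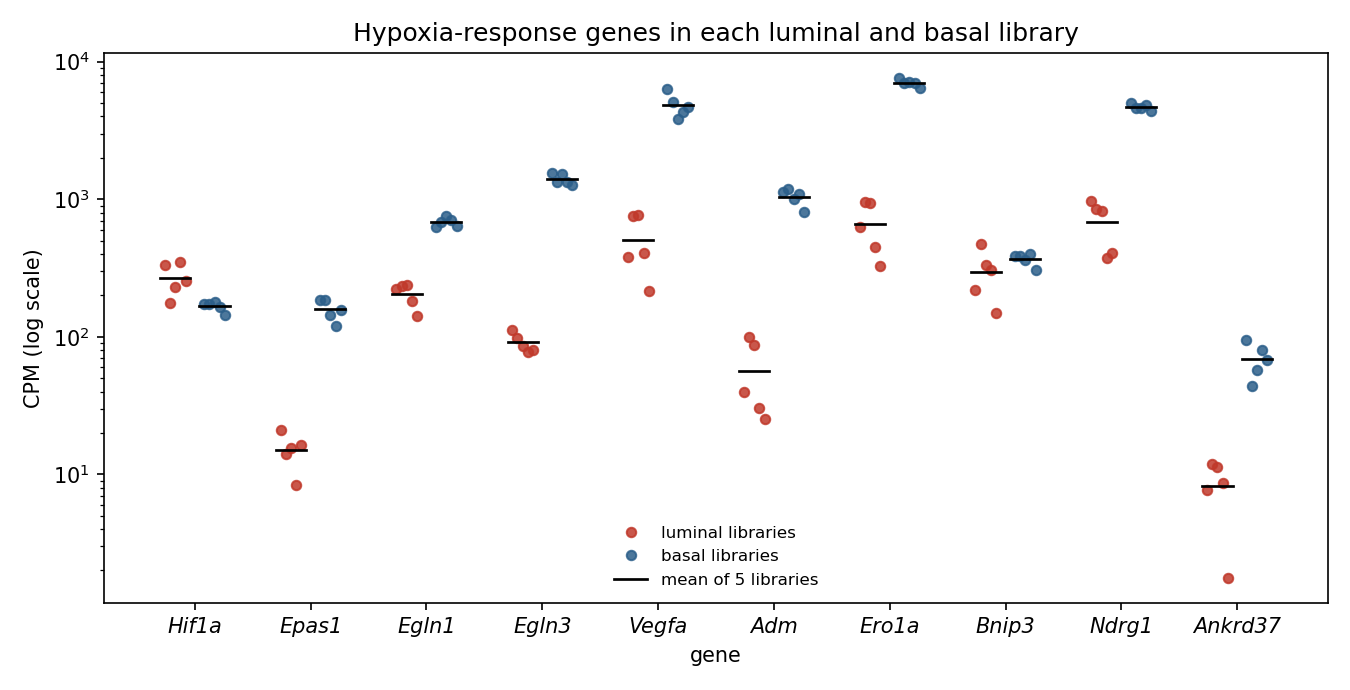
Level of each of the 10 genes in CPM on a log axis, with 1 point per library (red luminal, blue basal) and a black line at the mean of 5 libraries. Only Hif1a and Bnip3 have overlapping groups, and the luminal points of Vegfa, Adm, Ero1a and Ankrd37 are spread further apart than their basal points.

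HIF binds the core ACGTG or GCGTG, and 8 of the 10 genes had a promoter window in the RefSeq table of assembly GRCm38.p6. Each window runs from 250 bases before to 50 bases after an annotated start, 300 bases in all, and Vegfa has a pair of them. Of all 32851 windows in that table, 43.8% held at least 1 core on either strand, 20.6% at least 2, 8.93% at least 3 and 3.86% at least 4. One stretch of 30 bases per gene is printed to show what these cores look like in the genes described, read 5′ to 3′ on the strand of the gene, with the core in capitals. CACGT and CACGC are the same cores on the other strand, and CACGTG counts once on each strand.

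Bnip3, chr7:138909597-138909626, minus strand: gcgCACGCgccgCACGTGccaCACGCtccc
Ankrd37, chr8:45999987-46000016, minus strand: ccttcactgcgCACGCGTGctgcggccgcc
Hif1a, chr12:73907720-73907749, plus strand: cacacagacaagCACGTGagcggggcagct
Ero1a, chr14:45318618-45318647, minus strand: cgcgcgccgctgCACGTccgcaggggaggc
Vegfa, chr17:46025361-46025390, minus strand: ccctggagtGCGTGccCACGTcagagagca
Egln1, chr8:124949305-124949334, minus strand: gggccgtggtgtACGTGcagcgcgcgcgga
Adm, chr7:110627591-110627620, plus strand: ggcaaatctgacCACGCccaccgtccgccc
Egln3, chr12:54204086-54204115, minus strand: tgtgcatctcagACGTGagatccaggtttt

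The Bnip3 window held 5 cores, that of Ankrd37 4, those of Hif1a and Ero1a 3 each, those of Egln1 and Adm 2 each and that of Egln3 1. For Vegfa the printed stretch comes from the window of an internal start, which held 2, and the window at the 5′ end of the gene held 0. The windows of Hif1a and Ankrd37 also belong to starts inside the gene spans given below. A match in the letters is no evidence of binding, and HIF binding was not measured in these libraries.

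The HIF alpha subunits differed from each other in the direction of their difference. Hif1a (Entrez 15251, chr12:73901324-73947554, plus strand), the alpha subunit present in most cell types, was at 333, 177, 229.7, 349 and 254 CPM in luminal libraries 1 to 5 and at 174, 174, 180.4, 164 and 143 CPM in basal libraries 1 to 5. Luminal library 2 fell inside the basal range, and the other 4 luminal libraries lay above it. The means were 268 ± 71.8 CPM in luminal and 167 ± 14.7 CPM in basal cells (SD, n = 5 each), a log2 fold change of 0.68 (SE 0.18). The luminal value was the higher in 5 of 5 same-numbered pairs of libraries. The antisense gene Gm15283 shares 5.60% and the same-strand gene Gm49321 2.51% of the exon bases of Hif1a, and reads over those bases cannot be assigned here.

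Epas1 (Entrez 13819, chr17:86753864-86833410, plus strand) encodes HIF2 alpha, a subunit best known from endothelium and other selected tissues. Its level was 21.1, 14.2, 15.4, 8.39 and 16.2 CPM in the luminal libraries and 184, 185, 145, 119 and 158 CPM in the basal ones. The lowest basal library was thus several times the highest luminal one. The basal mean of 158 ± 27.7 CPM was 10.5-fold the luminal mean of 15.1 ± 4.55 CPM (SD, n = 5 each), with a log2 fold change of -3.39 (SE 0.22).

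Per kilobase of exon, which allows the 2 genes to be set side by side, Hif1a stood at 45.5 ± 12.2 and Epas1 at 2.69 ± 0.814 CPM per kilobase in luminal cells (SD, n = 5). In basal cells they were level, at 28.4 ± 2.49 and 28.3 ± 4.95 CPM per kilobase (SD, n = 5). Hif1a therefore made up 94.1% ± 2.0 of the summed alpha transcripts in luminal libraries (92.2% to 97.5%) and 50.3% ± 4.74 in basal libraries (46.3% to 56.7%). The sum of both was 48.2 ± 12.1 CPM per kilobase in luminal and 56.6 ± 5.95 in basal cells, and its ranges of 32.6 to 60.6 and 49.2 to 62.6 overlapped. The groups thus overlapped in the summed level and did not overlap in the share of Hif1a.

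**Figure D2:**
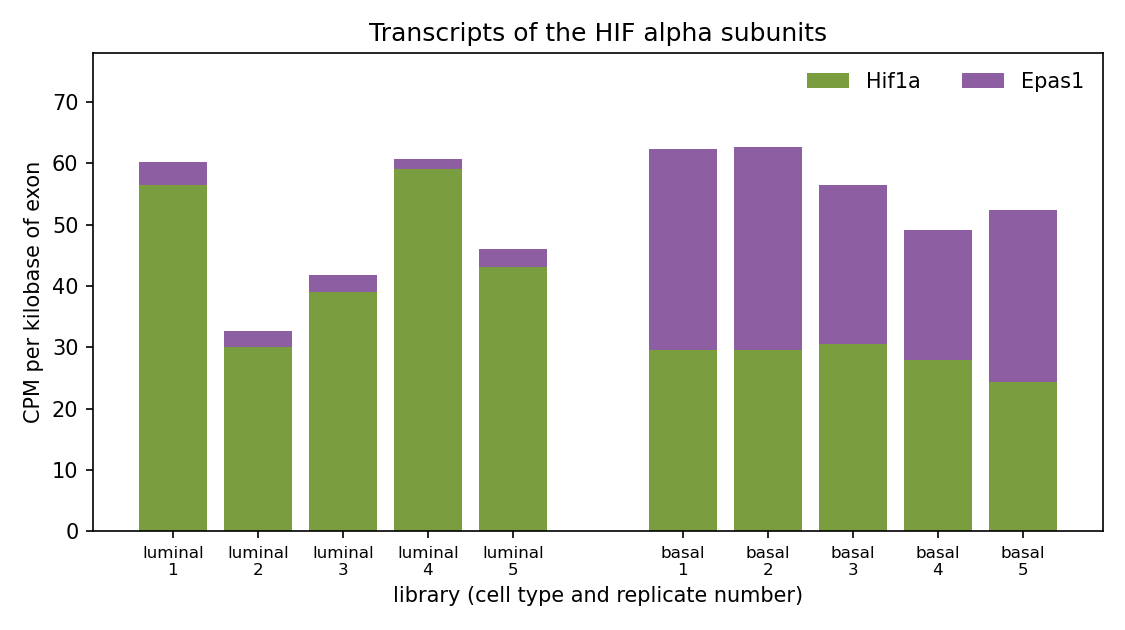
Hif1a (green) and Epas1 (purple) in each library, stacked, in CPM per kilobase of exon. Epas1 is a thin cap in the 5 luminal libraries and about as tall as Hif1a in the 5 basal ones, while the full heights overlap between the cell types.

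The prolyl hydroxylases EGLN1 and EGLN3 use oxygen to modify the alpha subunits, and their own genes are known targets of HIF. Egln1 (Entrez 112405, chr8:124908587-124949254, minus strand), the main enzyme in oxygen, was at 224, 233, 239, 182 and 142 CPM in luminal libraries and at 627, 685, 757, 705 and 644 CPM in basal libraries. The groups did not overlap, and the basal mean of 683 ± 51.6 CPM was 3.35-fold the luminal mean of 204 ± 41.1 CPM (log2 fold change -1.74, SE 0.17).

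Egln3 (Entrez 112407, chr12:54178981-54203874, minus strand) stood further apart. Luminal libraries had 112, 98.1, 86.2, 78.1 and 80.5 CPM and basal libraries 1541, 1336, 1521, 1338 and 1266 CPM. The basal mean of 1400.4 ± 123 CPM was 15.4-fold the luminal mean of 90.9 ± 13.9 CPM (log2 fold change -3.95, SE 0.17). Of the summed Egln1 and Egln3 transcripts per kilobase, Egln1 was the larger part in luminal cells, at 62.2% ± 4.04 (56.7% to 67.3%), and the smaller part in basal cells, at 26.6% ± 1.97 (23.1% to 28.1%).

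Both secreted factors were higher in every basal library than in any luminal one. Vegfa (Entrez 22339, chr17:46016993-46032377, minus strand), the principal growth factor for blood vessels, was at 379, 757, 769.8, 404 and 217 CPM in luminal and at 6300.4, 5055, 3832, 4311 and 4692 CPM in basal libraries. Even the highest luminal library was far below the lowest basal one. The basal mean of 4838 ± 935 CPM was 9.57-fold the luminal mean of 505 ± 246 CPM (log2 fold change -3.26, SE 0.33).

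Adm (Entrez 11535, chr7:110627657-110629820, plus strand) encodes adrenomedullin, a peptide that widens vessels and acts on lymphatic and blood endothelium. It was at 39.9, 99.6, 86.9, 30.2 and 25.3 CPM in luminal and at 1125, 1184, 996, 1088 and 813 CPM in basal libraries. This was the largest fold among the 10 genes, 18.5-fold between the basal mean of 1041 ± 145 CPM and the luminal mean of 56.4 ± 34.4 CPM (log2 fold change -4.20, SE 0.38). Luminal libraries 2 and 3 had more than the other 3, for Adm as for Vegfa.

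Ero1a (Entrez 50527, chr14:45283087-45318572, minus strand) encodes the oxidase that regenerates protein disulfide isomerase during disulfide bond formation in the endoplasmic reticulum. It was at 629, 959, 936, 450.2 and 326 CPM in luminal and at 7609.9, 7026, 7090.2, 7009 and 6432 CPM in basal libraries. The 5 basal values were close together, at 7033 ± 418 CPM, and their mean was 10.7-fold the luminal mean of 660.0 ± 284 CPM (log2 fold change -3.41, SE 0.29). Ero1a ranked 14 of 13701 tested genes with an exon length in basal cells, by CPM per kilobase, and 337 in luminal cells.

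Ndrg1 (Entrez 17988, chr15:66929318-66969641, minus strand), a stress-responsive cytoplasmic protein tied to differentiation, was at 973, 847, 814, 376 and 408 CPM in luminal and at 5008, 4593, 4639, 4849.9 and 4354 CPM in basal libraries. The groups did not overlap, and the basal mean of 4689 ± 251 CPM was 6.86-fold the luminal mean of 684 ± 273 CPM (log2 fold change -2.78, SE 0.27). Opposite-strand transcripts share 6.35% (Gm17035) and 2.08% (Gm2895) of the exon bases of Ndrg1, and since the use of strand in counting is not given in the sources used here, reads over them cannot be assigned.

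Bnip3 (Entrez 12176, chr7:138890836-138909506, minus strand), a mitochondrial outer membrane protein that promotes removal of mitochondria by autophagy, did not separate the cell types. Luminal libraries had 218, 476, 334, 308 and 149 CPM and basal libraries 384, 387, 359, 397 and 304 CPM. Luminal library 2 was the highest of all 10 and luminal library 5 the lowest. The means were 297 ± 124 CPM in luminal and 366 ± 37.3 CPM in basal cells (log2 fold change -0.30, SE 0.24), and the basal value was the higher in 4 of 5 same-numbered pairs. The antisense gene Gm45507 shares 22.3% of the exon bases of Bnip3, and as for Ndrg1, reads over them cannot be assigned.

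Ankrd37 (Entrez 654824, chr8:45996908-46000414, minus strand), an ankyrin repeat protein whose gene is a HIF1 target had low counts in luminal cells. It was at 7.68, 11.8, 11.3, 8.69 and 1.77 CPM in luminal and at 95.1, 44.2, 56.9, 80.1 and 68.0 CPM in basal libraries. Luminal library 5 was the lowest, on 28 counts, and the groups did not overlap. The basal mean of 68.8 ± 19.8 CPM was 8.34-fold the luminal mean of 8.25 ± 4.01 CPM (log2 fold change -3.06, SE 0.38). Lrp2bp, on the opposite strand, shares 22.7% of its exon bases and Ufsp2 3.70%, and reads over those bases cannot be assigned either.

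Set in order by CPM per kilobase, the basal cells had Ero1a (1331 ± 79.1) and Vegfa (1129 ± 218) at the top, with overlapping ranges. A second group followed, of Ndrg1 (711 ± 38.0), Adm (643 ± 89.5) and Egln3 (526 ± 46.1), in which each neighbour overlapped the next. Egln1 (190.1 ± 14.4) and Bnip3 (162 ± 16.5) came next and overlapped, and Ankrd37 (44.7 ± 12.9) and both alpha subunits were lowest. In luminal cells Bnip3 (131 ± 54.8), Ero1a (125 ± 53.7), Vegfa (118 ± 57.5) and Ndrg1 (104 ± 41.4) led, and the ranges of neighbours overlapped all the way down to Adm (34.8 ± 21.2) and Egln3 (34.1 ± 5.22). Only the step from Egln3 to Ankrd37 (5.36 ± 2.61) in luminal cells was free of overlap. Bnip3 thus went from seventh place in basal cells to first in luminal cells at much the same level, as the genes around it were lower there.

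The spread among libraries of the same cell type was also uneven. Among 9803 genes with a mean of at least 10 CPM in luminal cells the median SD of log2 CPM was 0.29, and 90% of these genes were under 0.55. Of the 9 members with such a mean, 5 exceeded 0.55, namely Adm (0.90), Vegfa (0.77), Ero1a (0.67), Ndrg1 (0.64) and Bnip3 (0.64). Ankrd37, with a luminal mean under 10 CPM, had an SD of 1.13. Egln3 (0.21) and Egln1 (0.32) did not share this spread.

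In basal cells these genes ranged from among the steadiest to among the most spread. The basal SD of log2 CPM was 0.08 for Ndrg1 and 0.09 for Ero1a, which 2.86% and 4.18% of 9466 genes undercut, 0.16 for Bnip3 (22.1%), 0.21 for Adm (43.7%) and 0.27 for Vegfa (62.5%). Only Ankrd37 (0.43) exceeded 0.42, under which 90% of these genes lay. These figures are descriptions with no test.

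In luminal cells most of these genes were high or low in the same libraries. Of the 8 members that are not alpha subunits, 8 lay above their luminal mean of log2 CPM in library 2 and 7 in library 3, against 5 in library 1, 2 in library 4 and 0 in library 5. Library 5 was the lowest for 6 of the 8. Vegfa, for example, was 0.74 and 0.76 above its luminal mean in libraries 2 and 3 and 1.07 below it in library 5. Hif1a ran otherwise, with its lowest luminal level in library 2 and its highest in library 4, and Epas1 was lowest in library 4.

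Genes that were not members showed part of this order. Of the 33 other pathway genes with a mean of at least 10 CPM in luminal cells, 14 had their lowest luminal value in library 5, where 14.9% of all 9803 genes had theirs, and 11 had their highest in library 2, where 16.3% of all genes did. In basal cells library 5 was the lowest for 17 of 40 such genes, against 13.1% of all 9466 genes, and for 5 of the 8 members. The luminal libraries differed in some luminal markers too, not all in the same order. Cd14 was at 2059, 461, 482, 488 and 1183 CPM, Kit at 288, 148, 129, 137 and 208 CPM and Elf5 at 127, 89.5, 66.6, 55.6 and 121 CPM in libraries 1 to 5, whereas Krt19 was highest in library 4 (4027 CPM, the others at 2414 to 3019) and Prlr was at 1164, 913, 958, 1325 and 1585 CPM. Libraries 2 and 3, with high Vegfa and Adm, were thus among the 3 with low Cd14, as was library 4, and whether cell makeup has a part in this spread was not tested.

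**Figure D3:**
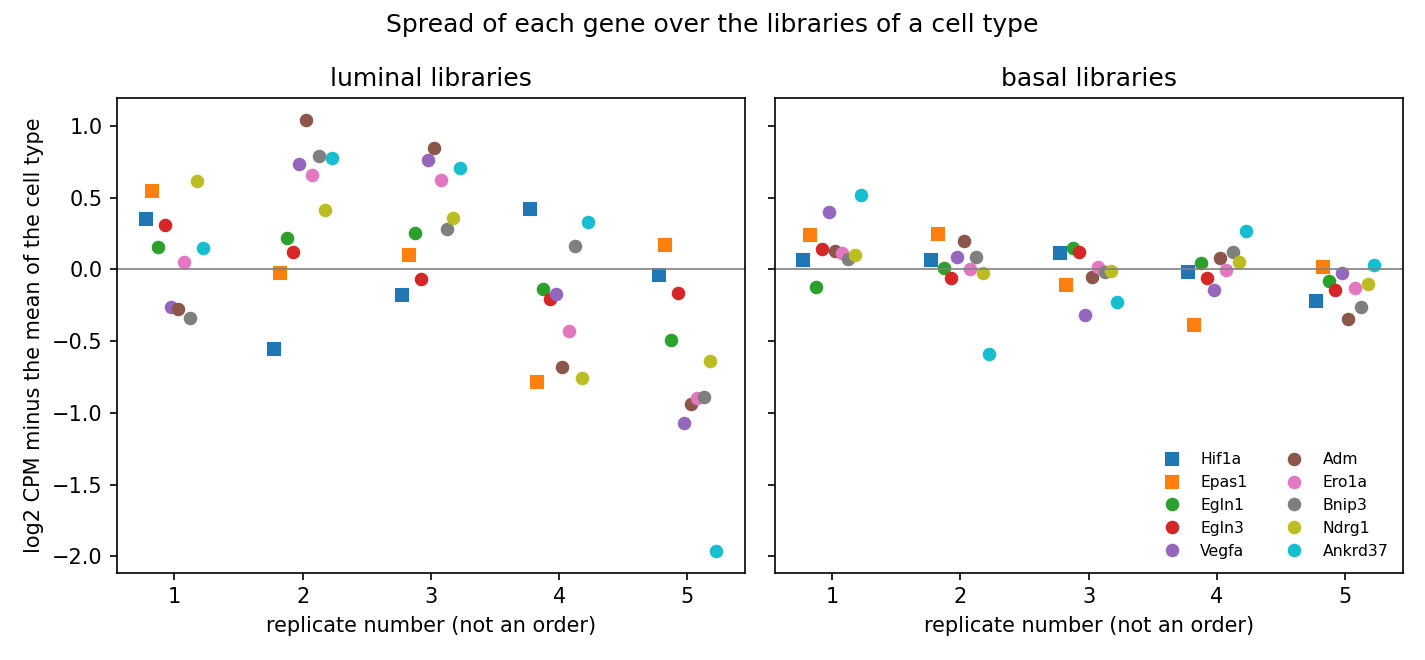
Deviation of each gene from its cell type mean in log2 CPM, for each luminal library (left) and basal library (right), with squares for the alpha subunits and circles for the other 8 genes. In luminal library 2 all 8 circles are above 0 and in luminal library 5 all 8 are below, and the basal points lie closer to 0.

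The rest of the pathway was described with 9 lists of 52 genes that are not members, of which 49 were tested. In the edgeR quasi-likelihood test with Benjamini-Hochberg adjustment over all genes, 29 of the 49 (59.2%) were higher in basal cells, 10 (20.4%) were higher in luminal cells and 10 did not pass. Of all genes tested, 31.2% were higher in basal and 33.6% in luminal cells, 64.8% in all. The lists were drawn up with earlier results of these libraries known, so their counts are descriptions and not independent evidence of a direction. The median log2 fold change of the 49 was -0.65.

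Among the partners and degraders of the alpha subunits, differences went both ways. Arnt, the partner of both alpha subunits, was higher in basal cells, at 71.3 ± 4.2 against 49.4 ± 10.6 CPM (SD, n = 5 each; log2 fold change -0.53, SE 0.15, edgeR adjusted p = 0.00655). Hif3a, another alpha gene that can act as an antagonist, had at most 2 counts in a basal library and was higher in luminal cells by at least 13.8-fold against a floor of 3 counts per library (edgeR adjusted p = 1.54e-05), from a luminal level of 1.32 to 5.5 CPM. The list of 8 genes for oxygen sensing and HIF degradation had 3 higher in basal, 2 higher in luminal and 3 that did not pass. Siah2, a ubiquitin ligase that degrades EGLN proteins, was at 24.9 ± 6.65 CPM in luminal and 129 ± 10.7 CPM in basal cells (log2 fold change -2.36, SE 0.18, edgeR adjusted p = 4.16e-08). Vhl, which recognises the hydroxylated subunit, was slightly higher in basal cells (-0.44, SE 0.12, edgeR adjusted p = 0.0056), and Elob, a subunit of its ligase, was higher in luminal cells (0.61, SE 0.18, edgeR adjusted p = 0.00739). The third hydroxylase, Egln2, was higher in luminal cells as well, at 65.4 ± 10.6 against 46.7 ± 7.75 CPM (0.49, SE 0.16, edgeR adjusted p = 0.0133), opposite to the direction seen for Egln1 and Egln3. With library totals in place of TMM, the calls of Arnt (edgeR adjusted p = 0.0934) and Vhl (0.0975) were lost.

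Of the HIF coactivators, Crebbp and Ep300, both histone acetyltransferases, were higher in basal cells, with log2 fold changes of -1.33 (SE 0.18, edgeR adjusted p = 1.65e-05) and -0.65 (SE 0.16, edgeR adjusted p = 0.00258). Cited2, which competes with HIF for them, was higher in luminal cells (0.54, SE 0.22, edgeR adjusted p = 0.0419). That call was lost with DESeq2 size factors (edgeR adjusted p = 0.0567), with no filter (0.0736), with limma voom (0.0672) and when any 1 of 8 of the libraries was left out (0.0543 to 0.101), the exceptions being luminal library 4 and basal library 5.

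Among 7 other secreted hypoxia targets 4 were higher in basal cells and 2 in luminal cells. Pgf, a VEGF family member that binds VEGF receptor 1, was at 11.2 ± 2.69 CPM in luminal and 135 ± 23.7 CPM in basal cells (log2 fold change -3.59, SE 0.19, edgeR adjusted p = 1.69e-09). The opposite direction was seen in Stc2, a secreted glycoprotein, at 436 ± 188 and 169 ± 32.5 CPM (1.37, SE 0.29, edgeR adjusted p = 0.000753), and in the vasoconstrictor peptide gene Edn1, at 8.97 ± 3.74 and 1.12 ± 0.675 CPM (2.99, SE 0.43, edgeR adjusted p = 3.14e-05).

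Of the 5 tested receptor genes for VEGFA and adrenomedullin, 3 were higher in basal cells and 2 did not pass. Kdr, the main signalling receptor for VEGFA, had 0 to 14 counts per library and was not tested, nor was Ramp2. Calcrl, the adrenomedullin receptor, was higher in basal cells but at 0.683 ± 0.486 and 2.23 ± 0.960 CPM in luminal and basal cells (log2 fold change -1.70, SE 0.55, edgeR adjusted p = 0.0141). Its coreceptor Ramp3 was at 1.23 ± 0.513 and 40.6 ± 24.9 CPM (-5.03, SE 0.42, edgeR adjusted p = 1.25e-07), with basal library 1 at 83.2 CPM and the others at 17.8 to 35.9 CPM. Nrp2, a VEGF coreceptor, was higher in basal cells (-3.11, SE 0.58, edgeR adjusted p = 0.000281), with -3.85 when luminal library 4 was left out and -3.92 under limma voom, and Nrp1 did not pass (1.05, SE 0.58, edgeR adjusted p = 0.126), though it did without basal library 4 (1.81, edgeR adjusted p = 0.0092). Flt1 did not pass either, at -0.24 (SE 0.51, edgeR adjusted p = 0.693).

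All 5 genes of the list that goes with Ero1a, the collagen hydroxylases and Ero1b, were higher in basal cells. Plod2, a lysyl hydroxylase for collagen crosslinks, was at 8.09 ± 1.3 CPM in luminal and 97.8 ± 20.6 CPM in basal cells (log2 fold change -3.59, SE 0.19, edgeR adjusted p = 1.22e-09). P4ha1, a prolyl hydroxylase subunit, was at 84.1 ± 14.0 and 484 ± 39.0 CPM (-2.52, SE 0.15, edgeR adjusted p = 4.2e-09). Ero1b, the paralogue of Ero1a, differed less, at 22.4 ± 5.32 and 54.1 ± 9.82 CPM (-1.27, SE 0.19, edgeR adjusted p = 3.41e-05).

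Of 6 mitochondrial hypoxia genes, 4 were higher in basal cells and 1 in luminal cells. Bnip3l, the paralogue of Bnip3 with a like role in mitophagy, was at 225 ± 43.3 CPM in luminal and 352 ± 7.21 CPM in basal cells (log2 fold change -0.64, SE 0.15, edgeR adjusted p = 0.0016). Ndufa4l2 and Cox4i2, which alter respiratory chain complexes when oxygen is low, had log2 fold changes of -4.94 (SE 0.45, edgeR adjusted p = 3.37e-07) and -3.60 (SE 0.35, edgeR adjusted p = 6.09e-07), with basal means of 46.1 ± 29.4 and 18.9 ± 4.63 CPM. Fundc1, another mitophagy receptor, was higher in luminal cells, at 59.1 ± 9.08 against 22.7 ± 1.06 CPM (1.38, SE 0.14, edgeR adjusted p = 7.85e-07). Of the 3 mitophagy receptors, Fundc1 was thus higher in luminal cells and Bnip3l higher in basal cells, while the ranges of Bnip3 overlapped. The log2 fold changes of Bnip3 and Bnip3l had the same sign, and the difference between them was not tested.

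The intracellular and surface targets had 6 of 10 higher in basal and 2 higher in luminal cells. Car9, a surface carbonic anhydrase that is among the most widely used marks of hypoxia, was at 5.5, 6.63, 7.11, 9.23 and 6.84 CPM in luminal and at 354, 377, 316, 366 and 271 CPM in basal libraries (log2 fold change -5.58, SE 0.18, edgeR adjusted p = 3.03e-11). Car12, its paralogue, differed in the same direction (-3.63, SE 0.24, edgeR adjusted p = 1.43e-08). Bhlhe40, a repressor in the circadian clock, was higher in luminal cells (0.91, SE 0.14, edgeR adjusted p = 7.15e-05), at 1227 ± 99.1 against 654 ± 74.1 CPM. The chemokine receptor gene Cxcr4 was higher there too (0.99, SE 0.36, edgeR adjusted p = 0.0253), but not with the replicate number as a block (0.88, edgeR adjusted p = 0.091) or without any 1 of 5 libraries (luminal 2 or 3, basal 2, 3 or 4), where the adjusted p was 0.0596 to 0.0886.

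The paralogues of Ndrg1 did not share a direction. Ndrg4 was higher in basal cells (log2 fold change -2.46, SE 0.40, edgeR adjusted p = 8.47e-05), Ndrg3 was higher in luminal cells (1.07, SE 0.22, edgeR adjusted p = 0.00058) and Ndrg2 did not pass (0.08, SE 0.23, edgeR adjusted p = 0.772).

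**Figure D4:**
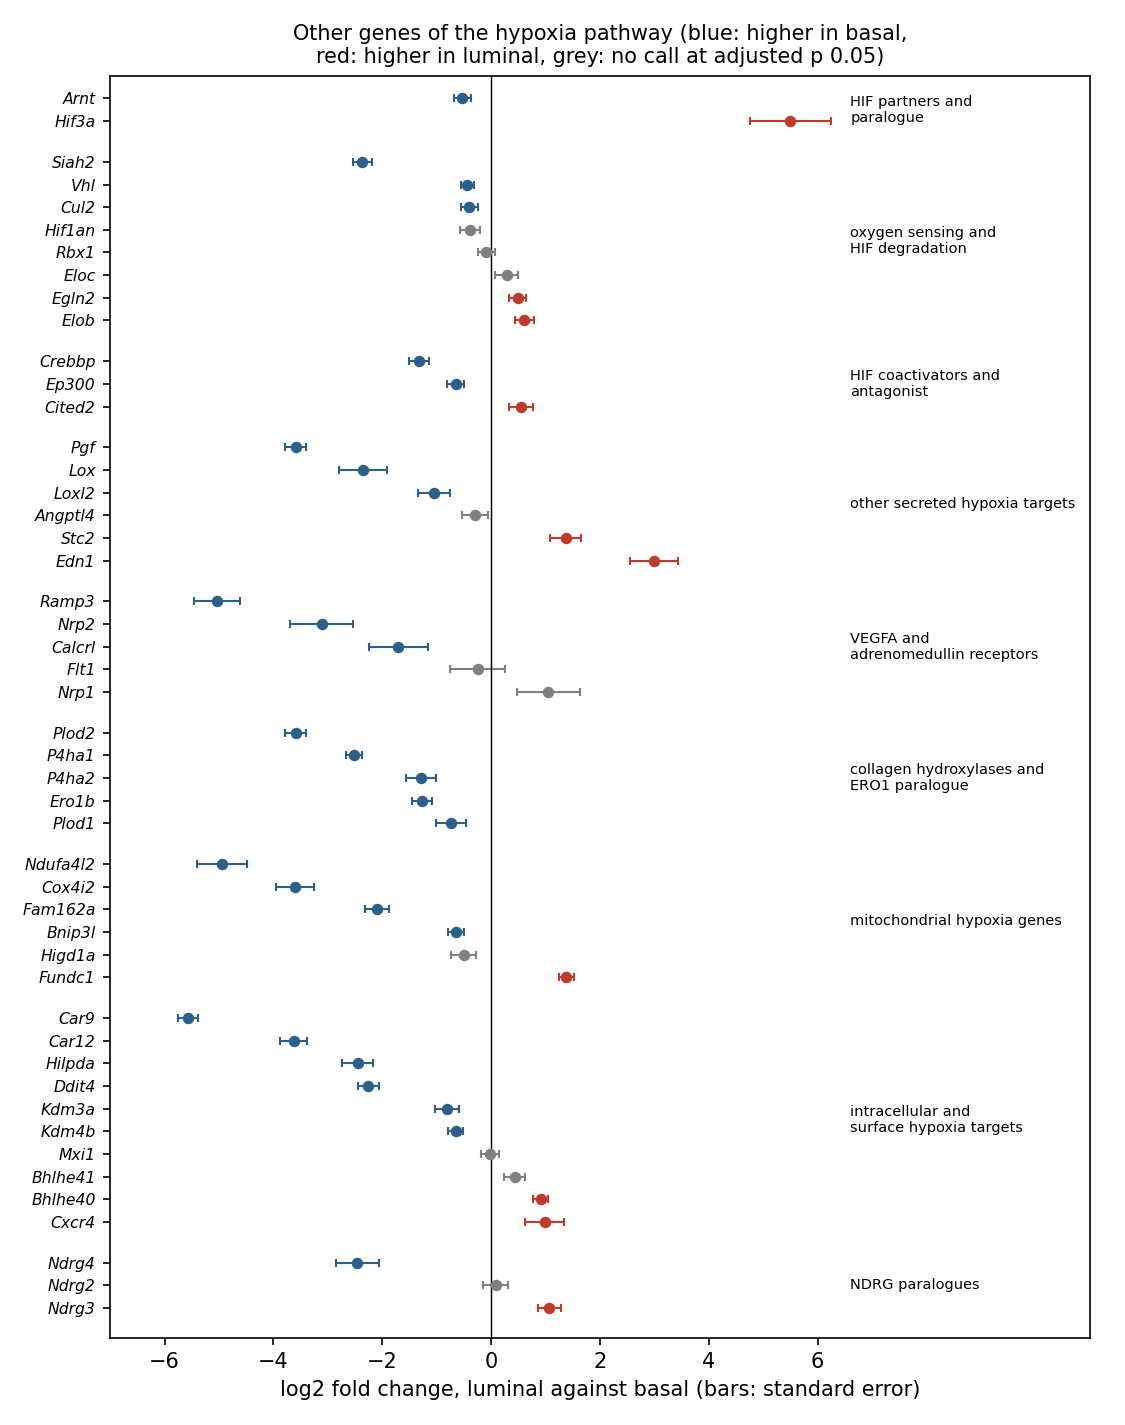
Log2 fold change, luminal minus basal, of 48 of the 49 tested pathway genes that are not members, grouped by list, with bars for the SE. Blue points (28) are higher in basal cells, red points (10) higher in luminal cells and grey points (10) did not pass an adjusted p of 0.05. The collagen hydroxylase list is blue throughout, and the sensing and degradation list lies mostly near 0.

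Other signals also differed between the groups. Of 9 genes known to respond to tissue dissociation, 7 were higher in basal cells (Fos, Fosb, Jun, Junb, Atf3, Egr1 and Dusp1) and 2 in luminal cells (Hspa1a and Hspa1b, near-identical copies whose reads may be split arbitrarily), with summed levels of 4514 to 6432 CPM in luminal and 4396 to 8767 CPM in basal libraries. Markers of endothelium, a rich source of Epas1, summed to 2.63 to 7.09 CPM in luminal and 9.12 to 15.9 CPM in basal libraries, with 2 of 5 higher in basal cells and Cdh5 at 4.58 ± 1.48 CPM there. Of 4 pericyte markers 3 were higher in basal cells, Rgs5 at 16.9 to 28.9 CPM, and 1 in luminal cells, which Notch3 made the higher group in sum (94.8 to 269 against 30.6 to 46.5 CPM). Immune markers summed to 4.12 to 11.3 and 12.2 to 34.4 CPM (2 of 5 higher in luminal and 1 in basal cells), with Cd3e at 0 throughout. Fibroblast markers summed to 22.0 to 113 and 24.7 to 41.4 CPM (1 of 5 higher in each cell type), adipocyte markers to 0.610 to 1.59 and 3.94 to 8.87 CPM (1 of 4 higher in basal cells, Adipoq at 0), and red cell markers to 3.37 to 16.8 and 0 to 0.187 CPM (1 of 2 higher in luminal cells). Tests covered 4 of 5 endothelial, 3 of 5 immune, 1 of 4 adipocyte and 1 of 2 red cell markers. The others failed the filter on low counts. The part of any of these other signals in the levels of the 10 genes or of the other pathway genes was not tested. Both cell types passed through dissociation, by the study's account with a first digestion of many hours, and sorting before RNA was taken. Levels in intact tissue were not measured here, and the part of that digestion in the levels given above was not tested.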

How the data were processed

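Bulk RNA-seq counts per gene were analysed for 5 luminal and 5 basal libraries. The authors deposited raw counts as whole numbers, without normalization. The labels list cutadapt 4.2, Bowtie2 2.3.5.1 and the builds mm10 and hg19. The study describes single-end, poly(A)-selected reads aligned with bowtie2, which does not span splice junctions. It describes fewer replicates than the 5 here, so it is not certain that these steps apply, and they were only assumed to. The counting tool, annotation and use of strand are not given in the sources used here. The study calls its RNA-seq replicates biological, but the labels do not say whether these libraries came from separate animals, and p-values measure the spread between them.

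Entrez identifiers were matched to GRCm38.p6 symbols (24570 of 24594). Counts were filtered with filterByExpr (minimum count 10, minimum total 15), scaled by TMM and compared with edgeR 4.0.16 (R 4.3.3, quasi-likelihood test, cell type as the only term, Benjamini-Hochberg adjustment, threshold 0.05). The SE was taken from the fold change and the F statistic. Lengths are the union of GENCODE exons. Members and lists were chosen with earlier results of these data known. Named genes are the members, the extremes of each pathway list (all genes of lists with 4 or fewer tested, otherwise the 2 largest positive and 2 largest negative log2 fold changes, where there were any) and markers. One named gene is not reported here. Ero1b, Bnip3l, Calcrl and Flt1 were added after their values were seen. The fit was tested on simulated data. Alternatives were other scalings and filters, DESeq2 1.42.0, limma voom (limma 3.58.1), a replicate block, thinning to 13203146 counts, other lengths and leaving out each library. A luminal and a basal library with the same replicate number also start their descriptions with a common number, which may be the animal, though the labels do not say so.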

Additional observations from a re-analysis of the deposited data

Results flagged for a closer look

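In 79 groups of 5 libraries, over members, named pathway genes and the shares given above, 4 had 1 library set apart by a gap that Dixon's 95% limit (0.71 of the range) does not allow, and chance gives about 1 in 20, or 3.95. Nrp1 was at 2.37 CPM in basal library 4 and at 0.299 to 0.681 CPM in the other basal libraries. Ramp3 was at 83.2 CPM in basal library 1 and at 17.8 to 35.9 CPM in the others. The Hif1a share of the alpha transcripts was 97.5% in luminal library 4 and 92.2% to 93.7% in the others, and that library had both the highest Hif1a and the lowest Epas1 of the luminal group. The Egln1 share of the Egln1 and Egln3 transcripts was 23.1% in basal library 1 and 26.9% to 28.1% in the others.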

How the results depend on the processing

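No member changed direction under any scaling, filter, tool or omission of 1 library, and 189 of 190 alternative values of their log2 fold changes moved by less than the replicate spread (Egln3 moved to -3.75 with library totals). Leaving out 1 library can move a mean by only part of that spread, so this count is a weak measure of stability. The median of the members ranged from -3.32 (limma voom) to -2.94 (library totals), and from -3.32 to -2.93 when 1 library was left out. Members without overlap numbered 8 or 9, the ninth being Hif1a, and Bnip3 ranged from -0.52 to -0.10. Library totals moved the median of all genes by 0.19 and upper-quartile factors by 0.12. Pathway genes higher in basal cells numbered 25 (library totals) to 33 (no filter), and 27 to 30 without 1 library, and those higher in luminal cells 8 to 12, and 8 to 10 without 1 library. Ndrg2 turned to -0.0851 without luminal library 2, its range being -0.09 to 0.26 with 1 library left out and 0.01 to 0.28 under the other settings. With the longest transcript as length the basal Hif1a share was 55.5%, and without length scaling the Egln1 shares were 68.9% in luminal and 32.8% in basal cells. Leaving out 1 library gave Hif1a shares of 93.3% to 94.6% and 48.8% to 51.4%, and Egln1 shares of 60.9% to 63.6% and 26.2% to 27.5%, in luminal and basal cells.

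With the replicate block the median of the members was -3.28, and the calls among pathway genes numbered 9 for luminal and 29 for basal cells. Among the pathway genes named by the rule, Cxcr4 was the only gene whose call it changed. Deviations of same-numbered libraries correlated at -0.13, 0.11, -0.07, 0.25 and 0.06, and 2 of 5 numbers correlated best with themselves. Low counts limit Hif3a and the receptor genes, several of which had under 10 counts in some libraries.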
